A study of Mus musculus with 12 samples.

Results

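The 908 genomic regions described here were open-chromatin regions that the deposited set names by a call in microglia and in lipid-laden monocyte-derived macrophages, and by no call in monocyte-derived macrophages without lipid load. They were found from the region identifiers, which list the groups whose peaks had been merged into each region, and are 908 of 117835 regions in all. A call in lipid-laden microglia was neither asked for nor barred, and 672 of the 908 regions (74.0%) carried one. The members were thus chosen by peak calls made from the same libraries as the counts, so the high levels of the regions in microglia and lipid-laden macrophages and their low levels in macrophages without lipid load follow from the choice and are no finding.

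The study profiled macrophages sorted from mouse brain tumours with ATAC-seq, an assay that cuts and tags accessible DNA with a transposase. Its 12 libraries form 4 groups of 3: lipid-laden monocyte-derived macrophages (LL-MDM), lipid-laden microglia (LL-MG), microglia without lipid load (MG) and monocyte-derived macrophages without lipid load (MDM). All 4 groups came from tumours of the same genotype, given as Ink4a/ArfKO with PDGFB, and no tumour-free brain is among them. The groups were taken from the sample descriptions, which are also the column names of the count table. The sample titles name the same group for 4 of the 12 libraries and another group for 8. Chromatin at Sall1, which encodes a transcription factor of microglia, was read as a check: its 5 regions summed to 12.4, 10.0 and 6.51 CPM (counts scaled to a common library size) in LL-MDM, 67.4, 87.5 and 67.9 in LL-MG, 77.8, 47.9 and 58.3 in MG, and 0.876, 1.09 and 0.513 in MDM. The described microglia groups thus stood above both macrophage groups at this locus, and LL-MDM stood above MDM. Nothing in the labels says that the 3 libraries of a group came from separate mice, so the p-values below measure only the spread between these libraries.

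Microglia settle in the brain before birth, whereas monocyte-derived macrophages enter a tumour from the blood, and each lineage keeps its own set of enhancers. Both can take up myelin and other lipid debris and store it in droplets, a state in which genes of lipoprotein export such as Apoe are commonly active. Most lineage-specific open regions lie far from promoters, where transcription factors such as PU.1 bind together with partners that differ between lineages. In a bulk library, fewer cells of a type and less open DNA per cell cannot be told apart.

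The member regions were mostly outside promoters. Of the 908 regions, 574 (63.2%) lay in the span of a protein-coding gene and 104 (11.5%) lay more than 50 kb from one, against 59.6% and 10.1% of all regions. A promoter window, from 250 bases before a gene's start to 50 bases after it, was touched by 32 members (3.52%), against 5.55% of the 2305 regions named by both microglia groups alone, 9.56% of all regions and 26.0% of the 32545 regions named by all 4 groups. Whether a region is exonic or intronic is not known here. The 5 promoter sequences printed here show where the called region falls relative to the gene start for genes of lipid export, lipid mediator sensing, membrane traffic, Wnt signalling and lysosomal control; they were chosen after the values were seen. All are from RefSeq (GRCm38.p6, the assembly of mm10), 300 bases each, given 5′ to 3′ on the gene's strand, and the capitals mark the bases inside the member region.

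Apoe, the main apolipoprotein of brain macrophages, chr7:19699139-19699438, minus strand, 125 bases inside the region:
Apoe: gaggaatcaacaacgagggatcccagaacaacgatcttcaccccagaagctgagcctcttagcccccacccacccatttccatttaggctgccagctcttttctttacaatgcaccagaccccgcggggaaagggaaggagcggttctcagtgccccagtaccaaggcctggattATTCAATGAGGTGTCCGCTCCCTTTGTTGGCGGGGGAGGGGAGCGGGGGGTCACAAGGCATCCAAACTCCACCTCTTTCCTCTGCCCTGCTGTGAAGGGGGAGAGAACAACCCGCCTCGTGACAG
Cmklr1, the chemerin receptor, chr5:113643554-113643853, minus strand, 176 bases inside:
Cmklr1: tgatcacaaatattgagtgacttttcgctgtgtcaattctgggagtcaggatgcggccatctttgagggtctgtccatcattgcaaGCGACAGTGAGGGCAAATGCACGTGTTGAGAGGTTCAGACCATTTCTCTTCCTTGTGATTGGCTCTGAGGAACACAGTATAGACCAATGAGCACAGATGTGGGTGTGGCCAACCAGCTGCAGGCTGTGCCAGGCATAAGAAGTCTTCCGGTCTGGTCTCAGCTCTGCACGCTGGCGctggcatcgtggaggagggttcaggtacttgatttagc
Arap1, an activator of GTP hydrolysis by Arf proteins, chr7:101385276-101385575, plus strand, 221 bases inside:
Arap1: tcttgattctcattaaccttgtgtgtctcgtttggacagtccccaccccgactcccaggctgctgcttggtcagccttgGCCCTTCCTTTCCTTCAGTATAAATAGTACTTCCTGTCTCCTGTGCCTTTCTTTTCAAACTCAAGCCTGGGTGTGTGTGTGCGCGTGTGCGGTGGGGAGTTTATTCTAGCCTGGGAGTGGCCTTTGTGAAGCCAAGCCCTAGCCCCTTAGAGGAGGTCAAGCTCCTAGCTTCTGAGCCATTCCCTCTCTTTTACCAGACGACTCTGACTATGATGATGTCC
Axin2, an inhibitor of Wnt signalling, chr11:108920099-108920398, plus strand, 170 bases inside:
Axin2: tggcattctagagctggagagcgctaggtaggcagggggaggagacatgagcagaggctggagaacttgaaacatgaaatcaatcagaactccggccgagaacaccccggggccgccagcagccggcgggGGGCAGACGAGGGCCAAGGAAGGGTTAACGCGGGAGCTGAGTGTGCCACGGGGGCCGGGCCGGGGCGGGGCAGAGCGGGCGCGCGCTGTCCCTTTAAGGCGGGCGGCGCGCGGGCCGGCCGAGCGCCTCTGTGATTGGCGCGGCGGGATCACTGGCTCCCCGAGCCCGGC
Mitf, a transcription factor of lysosomal genes, chr6:97929567-97929866, plus strand, 60 bases inside:
Mitf: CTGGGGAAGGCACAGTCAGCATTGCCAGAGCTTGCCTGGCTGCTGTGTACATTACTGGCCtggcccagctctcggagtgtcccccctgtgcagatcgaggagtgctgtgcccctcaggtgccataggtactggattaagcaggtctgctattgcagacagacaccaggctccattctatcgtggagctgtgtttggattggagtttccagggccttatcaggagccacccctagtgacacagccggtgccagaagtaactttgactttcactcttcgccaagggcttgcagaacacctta

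The capitals run past the gene start to the window's 3′ end at Apoe, Arap1 and Axin2 and end shortly after the start at Cmklr1, while at Mitf they cover only the bases farthest upstream. The core GAGGAA of PU.1 sites (searched on both strands, and so also as TTCCTC) occurred in 12 of the 33 promoter windows that members touch (36.4%), against 28.3% of 32851 promoter windows of the same length. Inside the capitals it occurred at Cmklr1 as written and at Apoe on the other strand. The AP-1 letters TGANTCA were found in 6.06% of the members' windows, against 7.81% of all windows, the MEF2 consensus in 6.06%, against 3.69%, and the IRF consensus in 0 of 33, against 3.44%. These are counts of letters and say nothing of binding.

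Over the 908 regions together, LL-MDM held an intermediate level. The summed level was 3401, 4041 and 4321 CPM in LL-MDM, 8817, 8744 and 8303 CPM in LL-MG, 7368, 5733 and 6355 CPM in MG, and 1069, 1209 and 1020.1 CPM in MDM. No library of one group reached the range of another, and LL-MDM lay between MDM and the microglia groups, with means of 3921 ± 472 CPM in LL-MDM, 8621 ± 278 in LL-MG, 6485 ± 825 in MG and 1099 ± 98.0 in MDM (SD, n = 3 each). The level was higher in LL-MDM than in MDM for 907 of the 908 regions and higher in LL-MDM than in MG for 204. The median member had 3.42 CPM in LL-MDM, 7.15 in LL-MG, 5.47 in MG and 0.862 in MDM. The smallest library, LL-MDM 1 with 1162969 counts in regions, held a median of 3 counts per member and 74 members at 0, so single regions are coarse in it; the region totals of the 12 libraries ran up to 18938222.

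**Figure D1:**
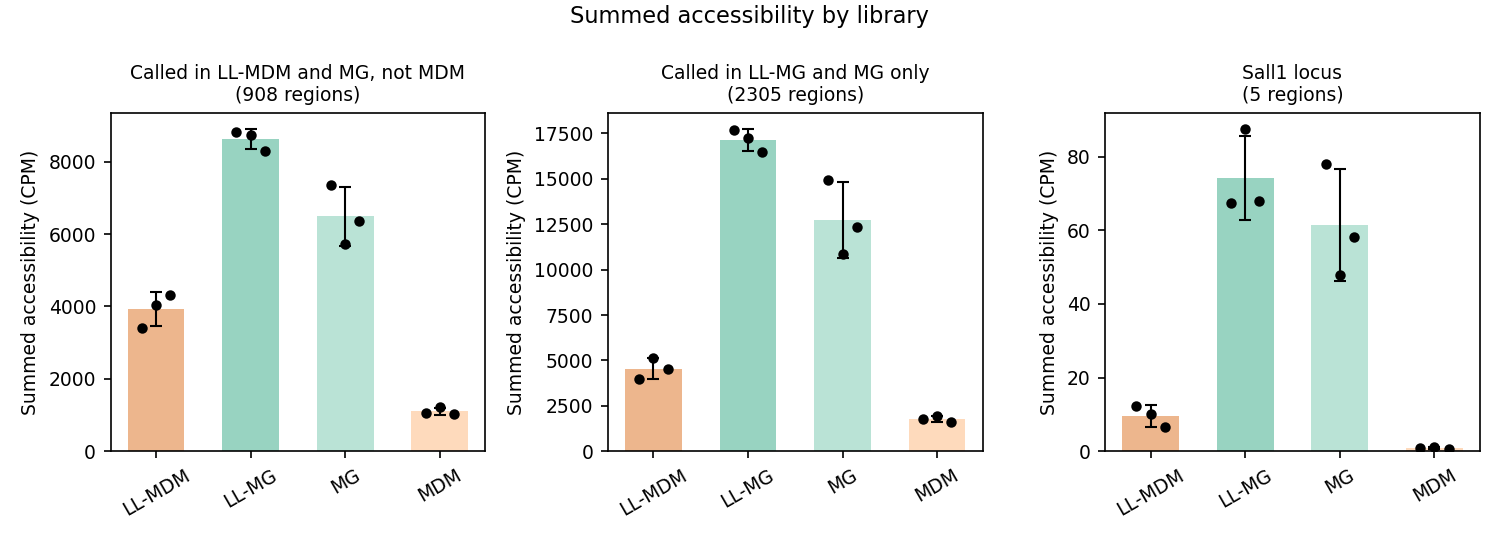
Summed accessibility (CPM) in each of the 12 libraries over the 908 member regions and over the sets named in the panel titles; points are libraries, bars the group means and error bars the SD. Over the member regions the LL-MDM libraries sit between 3401 and 4321 CPM, above the MDM libraries and below the LL-MG and MG libraries.

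To put the LL-MDM level on 1 scale, its place between MDM (0%) and MG (100%) was computed as the LL-MDM level minus the mean of MDM, divided by the mean of MG minus the mean of MDM, all in CPM. Over the member regions the LL-MDM libraries stood at 42.7%, 54.6% and 59.8%, a mean of 52.4% ± 8.76 (SD, n = 3). Over the 2305 regions named by both microglia groups and by neither macrophage group, the same libraries stood at 20.2%, 30.8% and 25.2% (mean 25.4% ± 5.29). At the Sall1 locus they stood at 19.1%, 15.2% and 9.39% (mean 14.6% ± 4.90). LL-MDM 1 was thus the lowest over the members and over the regions of both microglia groups alone, but the highest at Sall1. LL-MDM 3 was the highest over the members and the lowest at Sall1. The Sall1 places rest on few counts in 5 regions, and LL-MDM 1 is the smallest library, so their order is coarse. Part of the gap between the sets is fixed by their choice, since the members needed a call in LL-MDM and the other regions had none, so no test was made.

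At some microglia loci outside the members, levels in the LL-MDM libraries were also above those of MDM. At the Sall1 locus, every LL-MDM library lay above every MDM library, and each LL-MDM library lay above the 3 MDM libraries over the regions of both microglia groups alone (3974, 5134 and 4521 CPM in LL-MDM, 17674, 17252 and 16487 CPM in LL-MG, 14964, 10838 and 12366 CPM in MG, and 1773, 1916 and 1589 CPM in MDM). The regions of both microglia groups alone were themselves chosen as uncalled in both macrophage groups. A missing call can bear differently on LL-MDM (1162969 to 7390521 counts in regions) and on MDM (6341183 to 18938222), which was not tested. All 23 genes of the microglia identity list had regions, which summed to 2123 to 2248 CPM in LL-MDM, 2836 to 3015 in LL-MG, 2774 to 2932 in MG and 1980 to 2163 in MDM, so that LL-MDM overlapped MDM on the list as a whole. The monocyte-derived macrophage list (18 of its 19 genes had regions) summed to 1225 to 1265 CPM in LL-MDM, 759 to 792 in LL-MG, 759 to 1197 in MG and 1460.4 to 1540 in MDM. At Itga4, an integrin gene used to mark monocyte-derived cells, LL-MDM had 88.6, 82.2 and 87.7 CPM, LL-MG 58.4, 50.8 and 42.5, MG 41.9, 61.6 and 45.1, and MDM 139, 114 and 122. On the scale from MDM to MG, the LL-MDM libraries stood at 48.1%, 56.6% and 49.4% at Itga4 (mean 51.4% ± 4.59), where MDM is the higher end, against 52.4% over the members. At Sall1 and Itga4 alike, LL-MDM therefore lay between MDM and the microglia groups. How much of the members' LL-MDM level comes from microglia nuclei in the sort was not tested.

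Set at the place of the regions of both microglia groups alone, the member regions would have summed to 2188, 2757 and 2456 CPM in the 3 LL-MDM libraries. The measured sums were 1.55, 1.47 and 1.76 times these values. Of the 908 members, 596, 750 and 816 lay above that level in the 3 LL-MDM libraries, and 512 lay above it in all of them. The choice of members again fixes part of this excess.

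The members differed widely among themselves. For the 866 regions whose MG mean exceeded the MDM mean by at least 1 CPM, the place of LL-MDM ran from 7.5% to 425.3%, with a median of 56.2% and quartiles of 35.5% and 85.5%; over the regions of both microglia groups alone the median was 23.5% and the quartiles were 14.0% and 38.0%. At or below the mean of those regions (25.4%) lay 98 members, 279 lay above it and up to 50%, 318 up to 100%, and 171 above 100%. In the 98 lowest, the median levels were 2.83 CPM in LL-MDM, 13 in LL-MG, 12.8 in MG and 0.578 in MDM. In the 171 highest, they were 4.76 CPM in LL-MDM, 5.10 in LL-MG, 3.41 in MG and 0.943 in MDM. LL-MDM thus differed less between these ends than MG did, which is part of how the percentage is built.

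**Figure D2:**
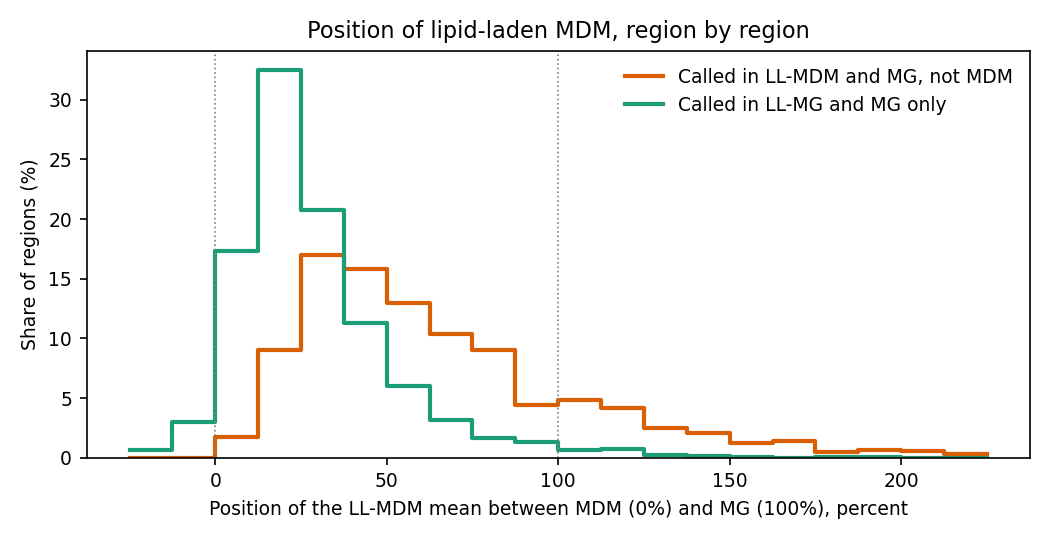
Place of the LL-MDM mean between the MDM mean (0%) and the MG mean (100%) for single regions, as the share of regions in each class of percent (12 members and 6 of the other regions lie beyond the axis). The median is 56.2% over the 866 member regions and 23.5% over the regions named by both microglia groups alone.

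Members of the lipid lists lay at both ends. At the region over the Apoe start (chr7:19699105-19699263), LL-MDM had 9.75, 10.2 and 8.56 CPM, LL-MG 10.9, 12.7 and 9.44, MG 8.90, 8.06 and 6.83, and MDM 2.85, 3.10 and 2.91. LL-MDM overlapped both microglia groups there, and every library of the other groups lay above every MDM library. The LL-MDM mean stood at 131% of the way to MG, with a difference from LL-MG of -0.19 ± 0.25 on the log2 scale (SE, edgeR, adjusted p = 0.649). At Igf1, a growth factor gene of lipid-associated macrophages, the place was 135%, with 2.66, 3.06 and 3.77 CPM in LL-MDM libraries, 6.33, 2.35 and 2.54 in LL-MG, 2.59, 2.40 and 2.44 in MG, and 0.438, 0.815 and 0.342 in MDM. By edgeR, LL-MDM was not called different from MG at Apoe (0.28 log2, adjusted p = 0.414) or at Igf1 (0.385 log2, adjusted p = 0.536). At Lpcat3, a phospholipid-remodelling enzyme under LXR control, LL-MDM had 1.77, 2.64 and 2.74 CPM, LL-MG 10.9, 8.93 and 7.26, MG 8.90, 7.89 and 5.61, and MDM 0.657, 0.543 and 0.342. Its place was only 26.9%, and it was lower in LL-MDM than in LL-MG by -1.79 ± 0.34 log2 (edgeR, adjusted p = 0.000222). Of the 24 genes of lipid uptake, storage and efflux with a region, Apoe and Lpcat3 were the 2 with a member; of 20 lipid-associated or disease-associated genes they were Apoe and Igf1, and of 14 genes of PPAR signalling and fatty acid oxidation it was Acadl, an acyl-CoA dehydrogenase of mitochondria.

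The chemokine and transcription factor lists had 1 member gene each. At Ccl7, which encodes an attractant of monocytes, LL-MDM had 7.09, 7.23 and 7.53 CPM, LL-MG 7.69, 11.3 and 9.07, MG 6.67, 3.95 and 6.10, and MDM 2.05, 1.85 and 1.88. Every LL-MDM library lay above every MG library and below every LL-MG library here, and the place was 147%. The difference of LL-MDM from MG was not called (0.45 log2, edgeR, adjusted p = 0.249). At the Mitf region, LL-MDM had 2.66, 2.50 and 2.40 CPM, LL-MG 9.05, 8.93 and 5.81, MG 5.56, 5.49 and 5.12, and MDM 0.803, 0.489 and 0.342. LL-MDM lay below both microglia groups there, at 40.8% of the way, and was lower than LL-MG by -1.64 ± 0.35 log2 (edgeR, adjusted p = 0.000865).

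Of the 23 microglia identity genes, 3 had a member region, namely Bin1, which bends endocytic membranes, Tgfbr2, a TGF-beta receptor, and Smad3, its signal transducer. Bin1 had 3.54, 6.26 and 4.45 CPM in LL-MDM libraries, 19.0, 17.9 and 14.2 in LL-MG, 10.0, 8.23 and 9.51 in MG, and 2.26, 2.01 and 1.88 in MDM. Tgfbr2 stood at 40.3% of the way and Smad3 at 47.3%, against 37.5% for Bin1. All 3 were lower in LL-MDM than in LL-MG by edgeR (-1.67 ± 0.26 log2, adjusted p = 1.59e-05 for Bin1; -1.25 ± 0.34, adjusted p = 0.00667 for Tgfbr2; -1.09 ± 0.34, adjusted p = 0.0186 for Smad3). The call of Tgfbr2 was lost without LL-MG 2 (adjusted p = 0.0793), and that of Smad3 without LL-MDM 2, LL-MDM 3 or LL-MG 1 (adjusted p = 0.0809 to 0.10). No gene of the monocyte-derived macrophage list had a member among its 150 regions, while the microglia identity list had 3 among 239. Members were 908 of all 117835 regions, so at that share lists of this size would hold few.

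Genes of other brain cells also carried members. On the oligodendrocyte list these were 4 of 11 genes with regions (4 of 70 regions). On the astrocyte list it was 1 of 6 genes (1 of 58 regions), and on the neuron list 2 of 6 (2 of 44). Of all 117835 regions, 908 were members. Nova1, a neuronal splicing regulator, had 5.32, 5.01 and 6.85 CPM in LL-MDM libraries, 33.5, 33.4 and 41.7 in LL-MG, 36.3, 25.2 and 30.5 in MG, and 0.292, 0.272 and 0.171 in MDM. Its place was 18%, and Rbfox1, another neuronal splicing factor, stood at 14.8%. Cspg4, a proteoglycan of oligodendrocyte precursors, had 7.09, 5.70 and 6.85 CPM in LL-MDM libraries, 22.6, 27.7 and 25 in LL-MG, 14.8, 9.61 and 15.1 in MG, and 1.1, 0.706 and 1.03 in MDM, a place of 45.8%. The myelin genes Mag and Mbp stood at 50.4% and 43.1%, Pdgfra, a receptor of oligodendrocyte precursors, at 15.3%, and the astrocyte glutamate transporter gene Slc1a2, whose member was too low to test, at 78.7%. Over all regions of the 6 neuron genes with any, the sums were 93.5 to 98.4 CPM in LL-MDM, 246 to 265 in LL-MG, 168 to 208 in MG and 70.8 to 86.1 in MDM; Gad2, Snap25 and Syt1 had no region. Over the 11 oligodendrocyte genes they were 359 to 383 CPM in LL-MDM, 391 to 416 in LL-MG, 372 to 408 in MG and 423 to 438 in MDM. The part of neurons, astrocytes or oligodendrocytes in these values was not tested. No endothelial, T and NK cell, B cell, neutrophil or dendritic cell list gene carried a member. These lists hold 73, 16, 30, 22 and 76 regions. At the share of members among all regions, lists of this size would hold few or none. Of the border-associated macrophage list (50 regions) only Stab1 carried a member, with a region that lies in the span of its neighbour Nisch. Over all regions of that list, LL-MDM had 299.5, 337 and 356 CPM, LL-MG 310.4, 314 and 298, MG 275, 275 and 267, and MDM 281, 286 and 299. The LL-MDM libraries stood in the same order on this list as over the members, but also on the astrocyte, endothelium, B cell and neutrophil lists. The order is thus not particular to this list. The part of border-associated macrophages in the members' level was not tested.

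The 8 members with the highest mean level were spread over the scale, from near MG to near MDM. At Mxi1, which encodes an antagonist of MYC, LL-MDM had 22.2, 25 and 23.6 CPM, LL-MG 33.5, 34.3 and 39.6, MG 31.1, 19.0 and 22.7, and MDM 4.38, 4.56 and 6.50. LL-MDM lay within the range of MG there, at 96.4% of the way. At Pmepa1, a target and inhibitor of TGF-beta signalling, LL-MDM had 20.4, 19.8 and 18.5 CPM, LL-MG 37.1, 39.5 and 44.6, MG 30.4, 16.8 and 21.0, and MDM 5.19, 5.38 and 5.81. Cflar, whose product c-FLIP blocks caspase-8, had 20.4, 22.4 and 20.9 CPM in LL-MDM libraries, 50.2, 44.2 and 43.2 in LL-MG, 31.9, 22.1 and 22.0 in MG, and 4.60, 4.40 and 3.42 in MDM. Pmepa1 stood at 81.5% of the way, Cflar at 80.6% and the Arap1 promoter at 72.0%. At the Arap1 promoter, LL-MDM had 15.1, 22.4 and 23.3 CPM, LL-MG 45.2, 48.4 and 53.3, MG 28.5, 22.8 and 28.5, and MDM 3.51, 4.02 and 3.93.

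At Tcim, Magi1, Csnk1e and Rgs3, LL-MDM lay nearer to MDM on this scale of CPM. In log2 terms it lay nearer to MG at each, with fitted differences from MDM of 3.09, 4.05, 2.32 and 3.385. Those from MG were -2.52, -2.32, -0.76 and -0.93. The region 17154 bp from Tcim, a regulator of transcription and immune responses, had 0.886, 7.79 and 4.79 CPM in LL-MDM libraries, 59.3, 52.7 and 49.0 in LL-MG, 48.6, 24.7 and 32.7 in MG, and 0.511, 0.869 and 0.513 in MDM. The strongest of 3 members in Magi1, a scaffold protein of cell junctions, had 2.66, 7.09 and 6.85 CPM in LL-MDM libraries, 52.0, 42.3 and 47.5 in LL-MG, 40.0, 24.9 and 33.4 in MG, and 0.511, 0.380 and 0 in MDM. Both stood low on the scale, Tcim at 11.1% and Magi1 at 16.1%, and the lowest LL-MDM value at each was from LL-MDM 1, the shallowest library. Csnk1e, a kinase of the circadian clock, and Rgs3, an inhibitor of G protein signalling, stood at 45.2% and 44.7%.

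**Figure D3:**
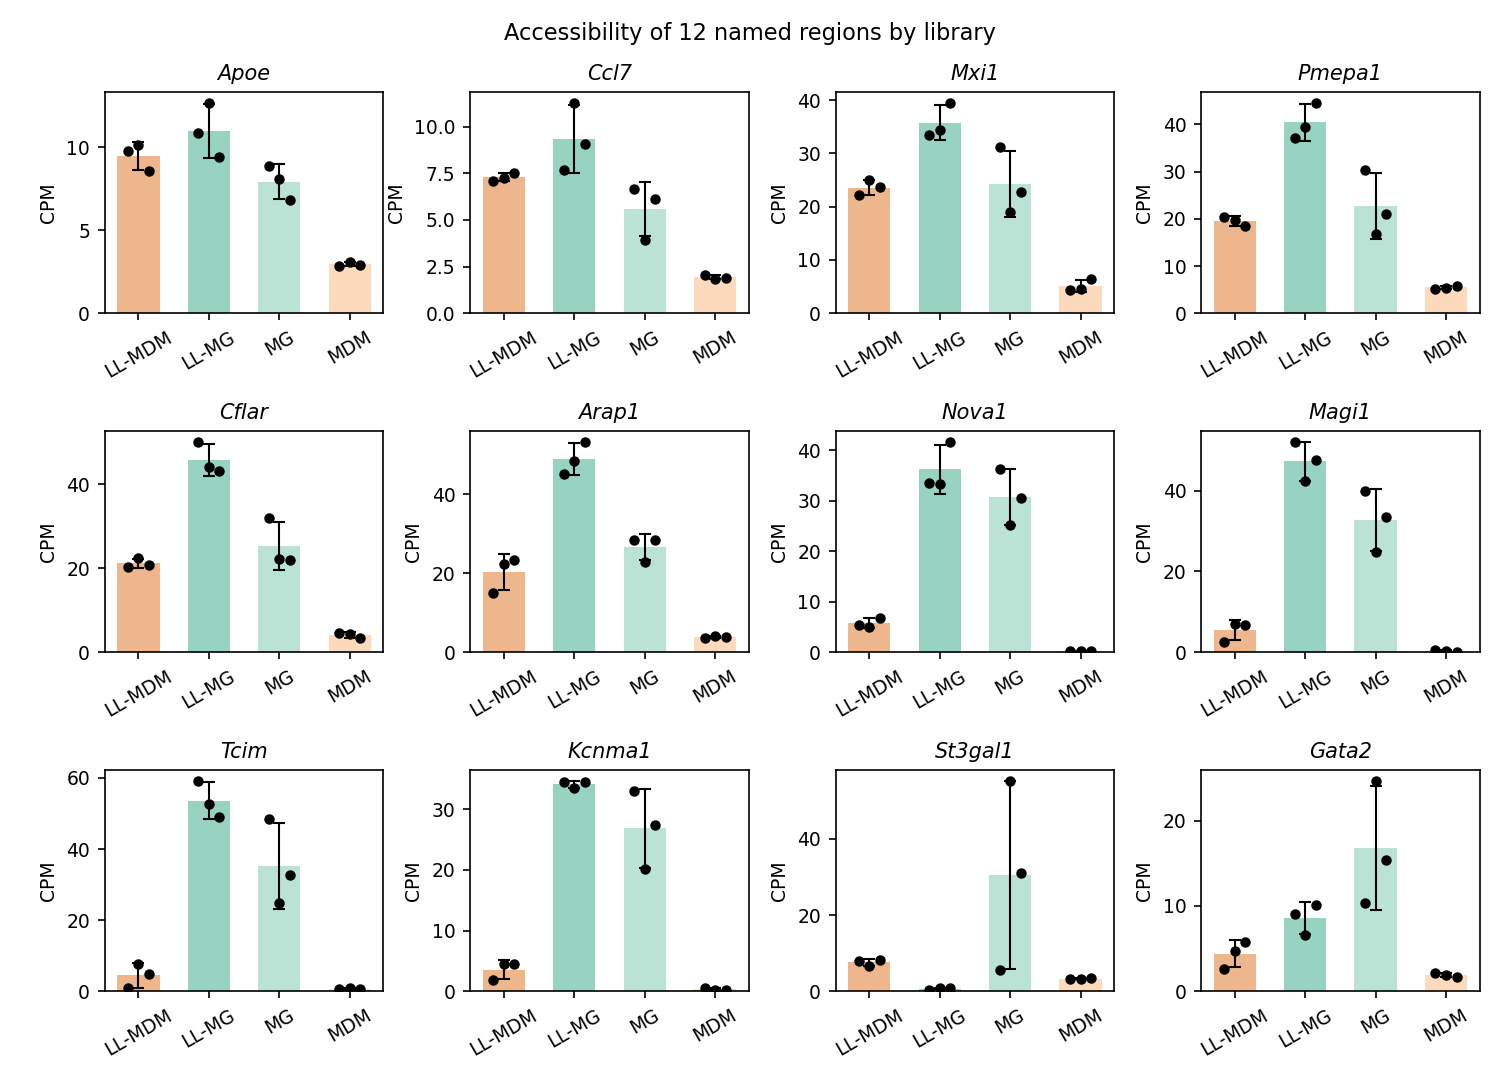
Accessibility (CPM) at 12 named member regions in each library, in the order LL-MDM, LL-MG, MG and MDM; points are libraries, bars the group means and error bars the SD. LL-MDM lies within or above the MG range at Apoe, Ccl7 and Mxi1, and far below it at Nova1, Magi1, Tcim and Kcnma1, and MG 2 and MG 3 stand above MG 1 at St3gal1 and Gata2.

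Whether members were open in LL-MG was not part of the choice, so LL-MG could be set against the other groups, with the reserve that MG and LL-MDM had each been chosen as called. A call in MG and none in MDM also picks regions of the microglia lineage, which LL-MG shares. Higher levels in LL-MG than in LL-MDM can therefore follow in part from the choice, and how large that part is was not tested. Of the 908 members, 830 passed the filter on low counts and were tested with edgeR over all 77737 tested regions. In LL-MDM against LL-MG, 405 members (48.8%) were lower in LL-MDM, where 10.3% of all tested regions were called lower, and 5 were higher, where 11.2% of all were. The median difference was -0.95 log2 over the members, against 0.03 over all tested regions. The libraries of the groups did not overlap in 513 lower members, against 18.6% of all tested regions, and in 20 higher members, against 20.3% of all. All 5 higher members were among the 236 without an LL-MG call, and 392 of the 405 lower ones were among the 672 with one; since the LL-MG call rests on the LL-MG level, this split is no separate result.

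The members with the smallest p among those lower in LL-MDM were Nova1, Kcnma1, Slc39a11, Magi1, Cadm1 and Rasa3. Kcnma1 encodes a calcium-activated potassium channel, Slc39a11 a zinc transporter, Cadm1 an adhesion molecule and Rasa3 an inhibitor of Ras and Rap. Kcnma1 had 1.77, 4.45 and 4.45 CPM in LL-MDM libraries, 34.4, 33.4 and 34.5 in LL-MG, 33.0, 20.1 and 27.3 in MG, and 0.511, 0.272 and 0.171 in MDM. The difference of LL-MDM from LL-MG was -3.05 ± 0.26 log2 (edgeR, adjusted p = 5.75e-10) at Kcnma1, and it was -2.69 at Nova1, -3.10 at Slc39a11, -2.88 at Magi1, -3.11 at Cadm1 and -2.34 at Rasa3, with no overlap of the libraries at any of the 6. At these 6 regions the place of LL-MDM was 12.2% to 18% of the way from MDM to MG. Every LL-MDM library lay above every MDM library there, which the choice of members bears on. In LL-MDM 1 this rests on 1 count at Slc39a11 and 2 counts at Kcnma1.

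Higher in LL-MDM than in LL-MG were Rtn3, a protein of the tubular endoplasmic reticulum, and Dio2, the deiodinase that activates thyroid hormone. The Rtn3 region, 4640.0 bp from the gene, had 12.4, 11.1 and 8.22 CPM in LL-MDM libraries, 0.905, 0 and 0 in LL-MG, 1.48, 19.4 and 11.7 in MG, and 3.36, 3.91 and 3.08 in MDM. Its LL-MG values rest on 2 counts in all, and its adjusted p of 0.0183 by edgeR became 0.136 by limma-voom and 0.0546 to 0.0667 without LL-MDM 2 or any 1 of the LL-MG libraries. The Dio2 region had 4.43, 3.34 and 3.42 CPM in LL-MDM libraries, 0, 0.470 and 0.726 in LL-MG, 0.371, 7.38 and 1.71 in MG, and 0.438, 0.652 and 0.513 in MDM (edgeR, adjusted p = 0.0377). Its LL-MG values rest on 3 counts in all, and its call was lost without any 1 of the LL-MDM or LL-MG libraries (adjusted p = 0.0622 to 0.122).

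In LL-MG against MG, 131 members (15.8%) were higher in LL-MG by edgeR, where 4.21% of all tested regions were called higher, and 19 (2.29%) were lower, where 8.01% of all were. The median difference was 0.51 log2 over the members and 0.00 over all tested regions. A higher level in LL-MG was not particular to the members. Over the 2305 regions of both microglia groups alone, LL-MG had a mean sum of 17138 CPM and MG 12723, against 8621 and 6485 over the members. Those 2305 regions had needed a call in LL-MG as well as in MG. The libraries did not overlap in 268 higher members, against 11.4% of all tested regions, and in 19 lower members, against 12.6% of all. All 131 higher members carried an LL-MG call, and 17 of the 19 lower ones did not, a split that the level in LL-MG itself decides. The counts moved with single libraries: without MG 1 they were 314 higher and 45 lower, without MG 2 they were 41 and 9, without MG 3 they were 74 and 13, without any 1 of the LL-MG libraries they were 42 to 66 and 2 to 7. With MG 1 as the only MG library, which is then assumed to vary like the other groups, the members' median difference was 0.24 log2. It was 0.51 log2 with all MG libraries, so the size of the difference depends on MG 2 and MG 3.

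Among higher members whose difference reached 1 on the log2 scale and whose libraries did not overlap, those with the smallest p were Epb41l2, of the membrane skeleton, Kcnh2, a potassium channel 36113 bp away, Aig1, a hydrolase of fatty acid esters, Timp2, an inhibitor of metalloproteinases 9819 bp away, Tmem154, and Ints7, of the Integrator complex. Epb41l2 had 4.43, 5.98 and 4.79 CPM in LL-MDM libraries, 18.1, 17.9 and 17.4 in LL-MG, 9.27, 5.49 and 6.59 in MG, and 1.46, 1.14 and 0.513 in MDM. Its LL-MG libraries all lay above its MG libraries, with a difference of 1.38 ± 0.26 log2 (edgeR, adjusted p = 0.00157). The differences of the other 5 ran from 1.09 at Ints7 to 1.54 at Kcnh2. At Timp2, LL-MDM had 9.75, 14.3 and 20.2 CPM, LL-MG 26.2, 21.6 and 24.7, MG 15.2, 7.38 and 11.2, and MDM 2.26, 2.12 and 3.42, so that LL-MDM overlapped MG and stood at 140.3% of the way. With MG 1 as the only MG library, the 6 differences were still positive, at 0.54 to 0.94 log2, and none passed the test (adjusted p = 0.384 to 0.610). Over the 131 regions, MG 1 lay above MG 2 and MG 3 in 96, and the sums were 742, 887 and 875 CPM in LL-MDM libraries, 2352, 2463 and 2254 in LL-MG, 1602, 1005 and 1282 in MG, and 181, 199.7 and 179 in MDM.

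The 19 members lower in LL-MG were high in MG 2 and MG 3. In each of the 19, both of these libraries exceeded MG 1, and the sums were 93.9, 86.2 and 88.7 CPM in LL-MDM libraries, 53.8, 62.1 and 58.4 in LL-MG, 94.9, 441.5 and 248 in MG, and 31.9, 32.5 and 27.7 in MDM. St3gal1, a sialyltransferase, had 7.97, 6.54 and 8.22 CPM in LL-MDM libraries, 0.452, 0.940 and 0.726 in LL-MG, 5.56, 55.1 and 31.0 in MG, and 3.14, 3.21 and 3.42 in MDM (edgeR, -5.47 ± 1.05 log2, adjusted p = 0.0146, but 0.235 by limma-voom and 0.0566 to 0.0601 without any 1 of the LL-MG libraries). LL-MDM lay above LL-MG in all 3 libraries there, and MG 1 lay closer to LL-MDM than to MG 2. The region over the start of Gata2, a transcription factor of mast cells, basophils and blood stem cells, had 2.66, 4.73 and 5.82 CPM in LL-MDM libraries, 9.05, 6.58 and 10.2 in LL-MG, 10.4, 24.7 and 15.4 in MG, and 2.19, 1.85 and 1.71 in MDM (-1.01 ± 0.28 log2, adjusted p = 0.0174 by edgeR, but 0.265 without MG 2 and 0.0550 to 0.109 without any 1 of the LL-MG libraries). Prkar2b, a subunit of protein kinase A, Kcnq5, a potassium channel, Ap1m1, a clathrin adaptor subunit, and Gcnt1, a glycosyltransferase, had the same order of MG libraries. So did the 6556 regions named by MG alone, with 14540, 41418 and 26506 CPM in MG and 11114, 11169 and 11539 in LL-MG. The order is thus not particular to the 19 regions, though over all 908 members MG 1 was the highest (7368, 5733 and 6355 CPM).

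Marker genes moved with these 19 regions. A list of 9 basophil and mast cell genes, chosen after the data were seen and including Gata2, had regions at 8 (Fcer1a had none), which summed to 173, 156 and 177 CPM in LL-MDM libraries, 155, 135 and 136 in LL-MG, 172, 595.5 and 346 in MG, and 259, 239.9 and 243 in MDM. MG 2 and MG 3 were the highest of the 12 libraries on this list, in the same order as at the 19 regions. The MG libraries had that order also on the monocyte-derived macrophage list (759, 1197 and 976 CPM) and the endothelium list (344, 435.5 and 374 CPM). It held too on the T and NK cell list (98.2, 117 and 103 CPM) and the neutrophil list (165, 185 and 167 CPM). The order is thus not particular to basophil and mast cell genes, though relative to MG 1 the rise in MG 2 was largest on their list among these lists. The part of such cells in the calls was not tested.

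**Figure D4:**
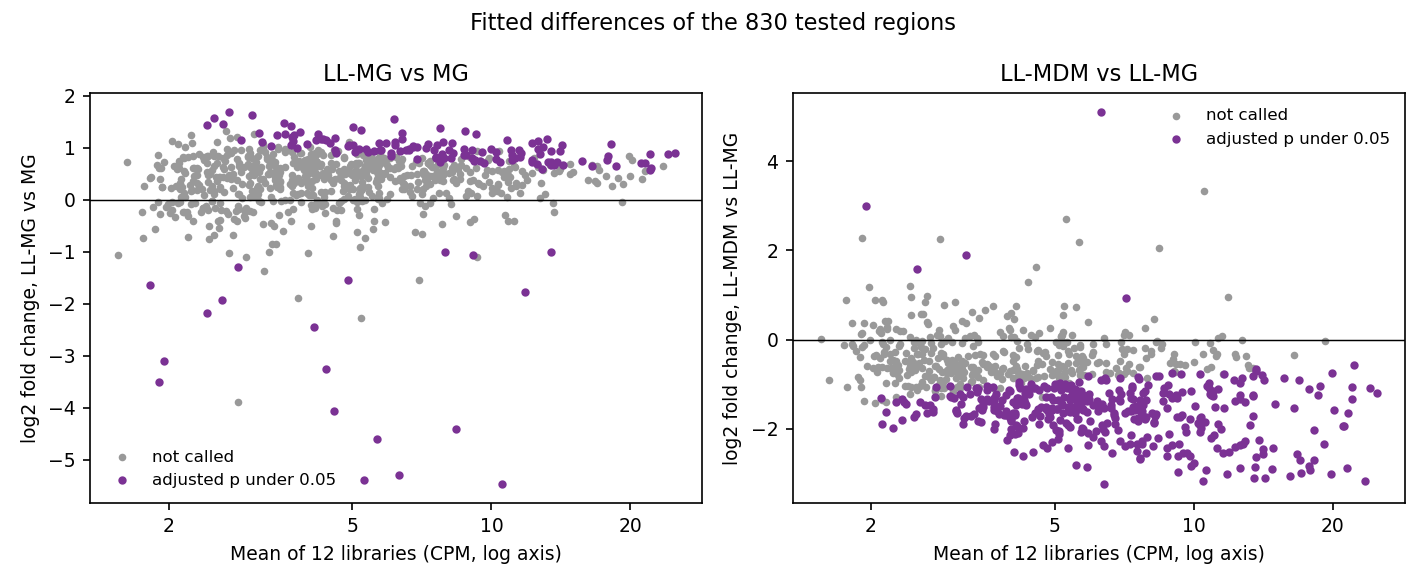
Fitted log2 fold change of LL-MG against MG (left) and of LL-MDM against LL-MG (right) at the 830 tested member regions, against their mean level over the 12 libraries in CPM on a log axis; each point is a region, dark where the adjusted p is under 0.05. The 19 lower calls on the left are scattered below the band of regions near 0.51, and on the right 405 called regions lie below 0 and 5 above it.

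The calls that the choice itself bears on are given for completeness and nothing is read from them. In LL-MDM against MDM, 748 members were higher by edgeR, where 15.4% of all tested regions were called higher, with a median of 1.90 log2, and in MG against MDM 799 were higher, where 26.8% of all were, with a median of 2.43. In LL-MDM against MG, 252 were lower, where 12.9% of all were, and 15 were higher, where 14.0% of all were, with a median of -0.55. The members with the highest MDM level were a region in Etv6, an ETS-family repressor, with 17.7, 25.2 and 25.7 CPM in LL-MDM libraries, 27.6, 19.3 and 26.5 in LL-MG, 21.5, 20.4 and 18.5 in MG, and 11.1, 8.26 and 9.23 in MDM, and regions in Afmid, of the kynurenine pathway, and Tlr9, a sensor of CpG DNA. At the far end was a region 25020.0 bp from Heatr1, a gene of ribosome biogenesis, with 1.77, 5.98 and 6.51 CPM in LL-MDM libraries, 44.3, 40.4 and 41.4 in LL-MG, 36.7, 18.4 and 18.5 in MG, and 0.0730, 0.163 and 0 in MDM. The place of LL-MDM was 126% at Etv6 and 19.1% at Heatr1.

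Members were spread over many genes. Within a gene's span or 5 kb of it, 616 genes had a member: 561 had 1, 49 had 2 and 6 had 3, namely Magi1, Dlgap2, Ttc28, Cpeb3, Camk2d and Slc24a3. Magi1 has 27 regions of any kind and Dlgap2, a scaffold of synapses, 29, so 3 members are a small part of either. The strongest Dlgap2 member stood at 17.3% of the way, near the Magi1 member, whereas that of Cpeb3, an RNA-binding regulator of translation, stood at 64.9% and that of Camk2d, a calcium-dependent kinase, at 43.4%. The members lay on 20 chromosomes, with 81 on chromosome 2 and 7 on the X chromosome. Those with an LL-MG call were wider (median 205 bp) than those without (127 bp), and their place was 40.2%, 53.5% and 56.3% in the 3 LL-MDM libraries, against 56.8%, 61.0% and 79.7% for those without.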

How the data were processed

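Accessibility was analysed from the whole-number counts of 12 libraries in 117835 merged regions, as the authors deposited them, with 3 libraries in each of 4 groups. According to the labels' protocols, sorted nuclei were cut with Tn5 made in the laboratory, and 2 PCR rounds of 9 cycles and a size selection of 150 to 700 bp followed. The mm10 build, deepTools 3.5.1, Picard 2.12.0, SAMtools 1.10 and BWA 0.7.17-r1188 are named in the submitters' processing notes. How peaks were called, duplicates treated and cut positions shifted is not given in the sources used here. No molecular identifiers are mentioned, so any PCR copies left in the counts could not be told from fragments. Errors rest on the spread between libraries.

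Groups follow the sample descriptions, and members were found by the tokens in the region identifiers. The members and the gene lists were chosen with earlier results of these data known. The test was edgeR 4.0.16 (R 4.3.3): quasi-likelihood fits of all 4 groups at once, robust, on TMM-scaled counts of the 77737 regions that filterByExpr kept. A call is a Benjamini-Hochberg adjusted p under 0.05 over all of these, at any fold. Standard errors came from the log2 fold change and its F value, and levels are CPM on TMM-scaled totals, not per length. The procedure was checked on simulated counts with the same spread in every region and group. That check cannot speak to libraries of a group as uneven as those of MG.

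Regions were named by the nearest protein-coding gene within 50 kb (RefSeq, GRCm38.p6), and a gene's regions lie in its span or within 5 kb. Region starts were taken as counted from 1. Named members were up to 4 genes of each of 17 lists, the 8 with the highest mean CPM, up to 6 called in each direction whose groups do not overlap and whose log2 difference reaches 1 in size, those with the highest and lowest MDM level, and the genes with the most members. Alternatives were RLE and total-count scaling, no filter, DESeq2 1.42.0, limma-voom 3.58.1, thinning to the smallest library, groups by title and leaving out each library. MG 1 as the only MG library, a replicate block and LL-MG as the upper end of the scale were added after seeing the data.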

Additional observations from a re-analysis of the deposited data

How the results depend on the processing

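Of 744 combinations of a named test and an alternative, 652 kept direction and call, 75 kept the direction but lost the call (18 of them with groups by title) and 17 changed sign, all with groups by title. The running numbers of the descriptions fall into 3 sets of 4 libraries, and the labels do not say what a set shares. Deviations from the group means correlated over tested regions at -0.0618 to 0.101 for libraries of the same set (median 0.0277, 18 pairs). For libraries of different sets they correlated at -0.0963 to 0.0699 (median -0.013, 36 pairs). Of 12 libraries, 10 correlated best with their own set, but these outcomes are not independent, since the deviations of a group are tied by its mean. This is a hint from the data and not from the design. With the sets as a replicate block, chosen after seeing the data, 117 members were higher and 20 lower in LL-MG against MG, and 6 higher and 394 lower in LL-MDM against LL-MG, and none of the named calls was lost. With LL-MG against MG, 150 members were called in all, against 90 with DESeq2, 31 after thinning (309 members tested), 1 with MG 1 as the only MG library (42 of all 80227 regions) and 49 to 359 without single libraries; limma-voom called 165 higher and 4 lower. With LL-MDM against LL-MG, 410 were called, against 205 after thinning and 284 to 462 without single libraries. With LL-MDM against MDM, 748 were called, against 159 after thinning, 320 with groups by title and 532 to 812 without single libraries; with MG against MDM, 799 against 277 after thinning and 745 to 835 without single libraries; and with LL-MDM against MG, 267 against 104 after thinning, 105 with groups by title, all of these higher in LL-MDM (median 1.47 log2) where the groups by description gave 15 higher and 252 lower, and 140 to 280 without single libraries. Fewer regions pass the filter after thinning. With groups by title, edgeR called 0 members both in LL-MDM against LL-MG (2 higher and 1 lower at an unadjusted p under 0.05) and in MG against MDM (4 higher). The place of LL-MDM over the members was 49.3% to 58.0% without single libraries, 37.5% with LL-MG as the upper end and 583% with groups by title; over regions of both microglia groups alone it was 22.8% to 28.7%, 18.1% and 1884%. The sign changes by title were, in LL-MG against MG, Prkar2b 2.30, St3gal1 1.79, Gata2 2.22, Kcnq5 2.02, Ap1m1 1.70 and Gcnt1 3.04, and in LL-MDM against LL-MG, Rtn3 -0.63, Dio2 -1.72, Nova1 0.0035, Kcnma1 0.0856, Cadm1 0.0060, Tgfbr2 0.4223, Smad3 0.1092, Cspg4 0.0213, Stab1 0.1499, Tcim 0.0213 and Rgs3 0.0852 (log2); Gata2 was also called (adjusted p = 0.0267). Apart from the groups by title and the thinning, whose construction is given, the cause of these shifts was not tested. Total-count scaling moved the median of all regions in LL-MG against MG to 0.11 log2, with 167 higher and 19 lower members. Depth limits single members most in LL-MDM 1.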
